A study of Mus musculus with 6 samples.

Results

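The genes described here are those of respiratory chain complex I whose symbols start with Nduf. They were taken as every probe set of the arrays that is annotated to exactly 1 such symbol, which gave 88 probe sets for 44 genes, of 45101 probe sets and 18193 genes with a symbol of their own on the array. The liver RNA came from 3 male B6.Alb/cre,Pdss2loxP/loxP mice, called mutants, and from 3 male B6.Pdss2loxP/loxP mice, called controls, with 1 Affymetrix array for each animal. Both groups carry the loxP-flanked Pdss2 allele, and only the mutants carry cre recombinase under the albumin promoter, which is active in hepatocytes, so that the other cells of the liver are not the target. Mutants 1 to 3 had reached 176, 178 and 224 days of age, and controls 1 to 3 had reached 209, 213 and 140 days. By the labels, mutants and controls lived in different cages, food was withdrawn 3 hours before the livers were removed, and control 1 is the concurrent control of mutant 3. Values are log2 signals as the authors deposited them, and every difference is mutant minus control.

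Complex I oxidizes NADH in the mitochondrial matrix, hands the electrons to coenzyme Q (CoQ, ubiquinone) in the inner membrane and pumps protons across that membrane. Its catalytic core is shared with bacteria and is split between nuclear genes and mitochondrial DNA, and a larger shell of accessory subunits, all nuclear, surrounds it. Assembly factors help to build the complex and are not part of it when it is finished. Pdss2 encodes a subunit of the enzyme that makes the isoprenoid tail of CoQ.

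Several features of the arrays stood beside every result below. The array medians were between 6.12 and 6.24 in mutants and between 5.92 and 6.12 in controls, and the median difference over all 18193 genes was 0.17. The control probe set for the 3' end of Gapdh had log2 values of 11.92, 10.45 and 9.84 in mutants 1 to 3, against 11.96, 11.83 and 12.31 in controls 1 to 3. For the 5' end of Gapdh the values were 11.46, 11.51 and 11.61 in mutants and 9.64, 9.81 and 10.01 in controls. Subtracting the 5' from the 3' value of Gapdh left 0.45, -1.06 and -1.78 in the mutants, against 2.31, 2.02 and 2.30 in the controls. For Actb that difference was 2.60, 3.95 and 4.50 in mutants and 3.82, 3.90 and 3.11 in controls, and the groups overlapped. BioB, BioC and BioDn, bacterial transcripts added as spikes, were higher in mutants by 1.81, 1.66 and 1.43. Their part in the results for complex I was not tested.

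Hepatocyte markers gave bright signals. Alb was at 14.20, 13.65 and 13.40 in mutants and at 13.91, 14.04 and 14.06 in controls, and 0 of 13 hepatocyte markers were called. Of these 13, 3 had every mutant below every control and 2 every mutant above, shares to be read against 14.1% and 23.3% of all genes of the array. Summed over the list, the hepatocyte markers were between 16.45 and 16.65 in mutants and between 16.63 and 16.66 in controls on the log2 scale. The summed endothelial markers were between 12.55 and 13.30 in mutants and between 11.41 and 12.23 in controls, with 7 of 12 at higher values in every mutant than in every control, and the scavenger receptors Stab1 (1.39) and Stab2 (1.82) were called higher, as were 1.73% of all genes. For macrophages the summed level was 11.47 to 12.17 in mutants and 10.45 to 11.42 in controls, with 3 of 11 markers above in every mutant, near the 23.3% of all genes. Of the other lists, stellate cell markers summed to 11.81 to 12.19 in mutants and 11.77 to 12.24 in controls (3 of 10 above and 1 below in every mutant) and cholangiocyte markers to 8.50 to 8.85 in mutants and 8.05 to 8.19 in controls (3 of 5 above). Lymphocyte markers summed to 8.79 to 9.03 in mutants and 8.55 to 8.94 in controls (3 of 8 above), and erythroid markers to 8.64 to 9.44 in mutants and 9.28 to 9.53 in controls (1 of 3 above). In these 4 lists and in the macrophage list 0 genes were called, no marker was listed at 0, and their part in the results for complex I was not tested. In bulk tissue, fewer cells of a type and less RNA per cell cannot be told apart. Pdss2 itself had log2 values of 6.94, 6.88 and 7.05 in mutants and 7.46, 7.47 and 7.56 in controls on its brightest probe set, a difference of -0.54 with an adjusted p of 0.118 from limma, and its other 2 probe sets differed by 0.35 and 0.40. Their position along the gene is unknown here, and the deletion could not be checked with them.

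Most Nduf genes had lower values in the mutants, but none passed the test on its brightest probe set. Each gene was represented by its probe set of highest mean over the 6 arrays, and limma was fitted over all 45037 probe sets outside the array's own controls, with Benjamini-Hochberg adjustment and a call at an adjusted p under 0.05. On that measure 33 of the 44 genes were negative and 11 positive, with a median of -0.47 against 0.17 for all genes. For the whole oxidative phosphorylation pathway the study describes the opposite direction, by gene set enrichment on a signal-to-noise ranking. That pathway holds more than complex I, and a median over 44 genes is another measure. The groups used here are those of the sample titles, the difference from the study was not resolved, and exchanged labels would turn the sign of every value. The study reports a substantial Pdss2 knock-down in mutant livers by quantitative PCR, a much larger decrease than any Pdss2 probe set showed here. The brightest Pdss2 probe set was lower in every mutant (-0.54) but was not called (limma adjusted p = 0.118). Its other probe sets differed by 0.35 and 0.40. Whether labels were exchanged was not tested. With limma, 0 of the 44 genes were called lower and 0 higher, against 1.04% and 1.73% of all genes. At an unadjusted p under 0.05 there were 18 lower and 1 higher, where 12.2% of all genes were lower and 17.3% higher. In 24 of the 44 genes every mutant lay below every control, which held for 14.1% of all genes, and in 2 genes every mutant lay above every control, which held for 23.3%.

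Among the 88 probe sets, 1 was called lower (0.746% of all probe sets) and 1 higher (1.25%). The mutants lay entirely below the controls in 47 of the 88 (10.7% of all probe sets) and entirely above them in 4 (21.2%). The median difference was -0.65 over the 88 probe sets. When the fit was made with 1 value for each gene, its brightest probe set, 6 Nduf genes were called lower, against 4.11% of all genes. They were Ndufb1, Ndufs3, Ndufb8, Ndufaf1, Ndufa9 and Ndufb2. With the mean of the probe sets of each gene instead, 2 were called lower, Ndufb1 and Ndufs3, against 1.06% of all genes.

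**Figure D1:**
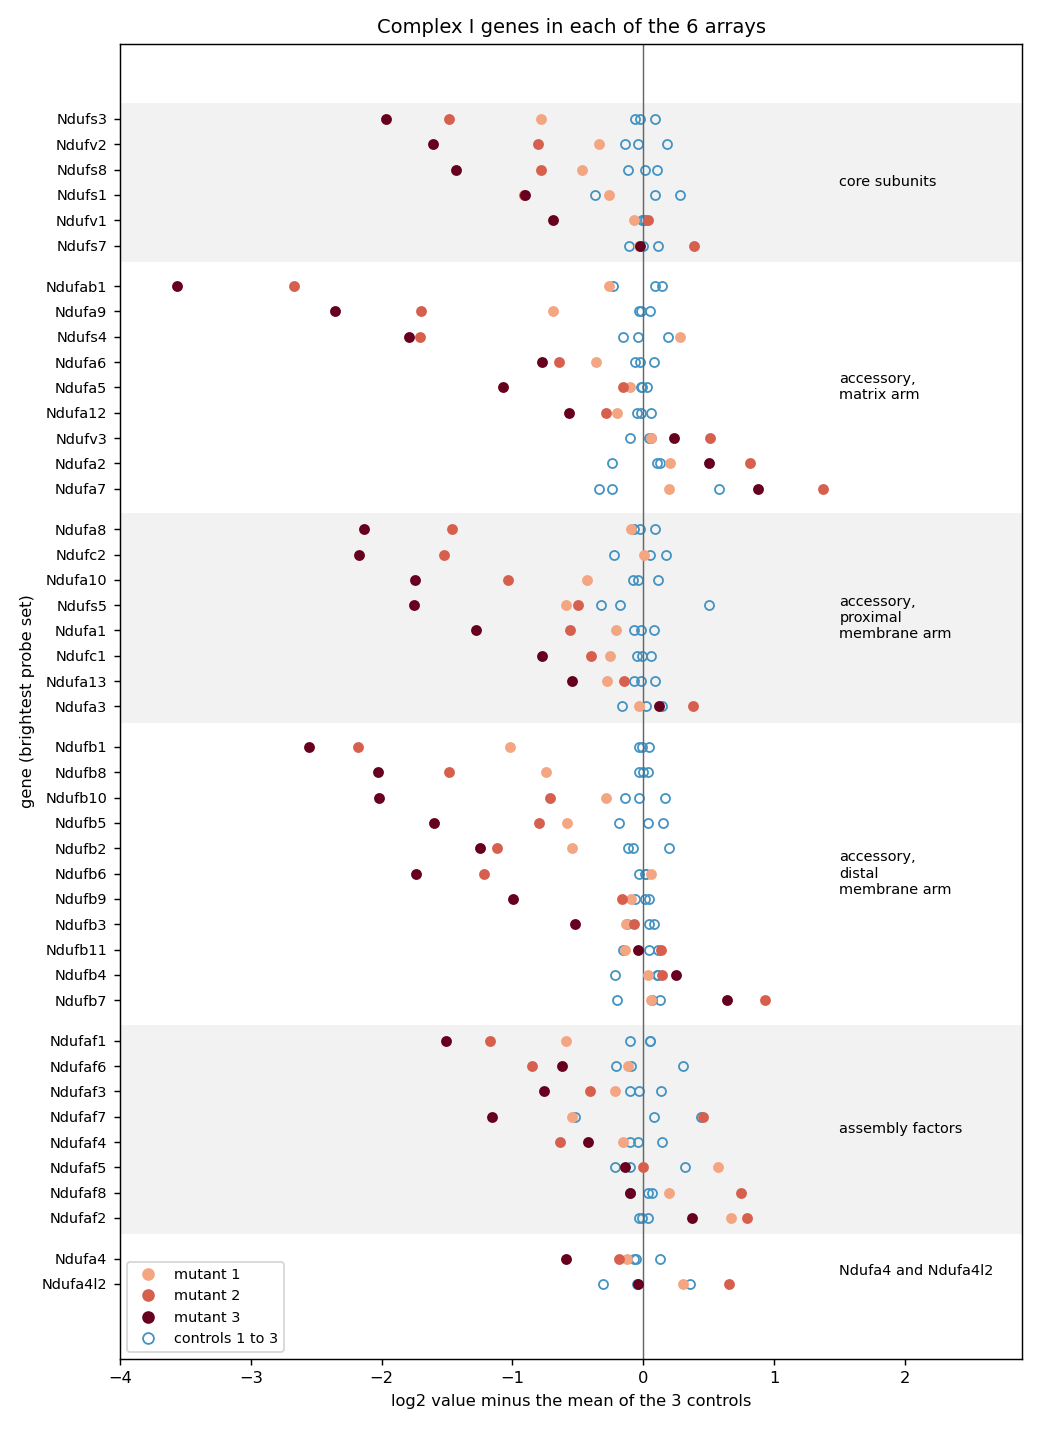
Log2 value of each of the 44 genes in each array, on its brightest probe set, minus the mean of the 3 controls (x axis), with genes grouped by class and ordered by their difference (y axis). Filled points are mutants 1 to 3 and open points the controls. Most mutant points lie left of the controls, and mutant 3 is the lowest array in 30 of the 44 genes.

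The core subunits encoded in the nucleus carry the flavin and the iron-sulfur clusters. The median difference of the 6 described here was -0.79. In 3 of the 6 all mutants lay below all controls, against 14.1% of all genes. Ndufs3, a core subunit of the matrix arm, had log2 values of 9.10, 8.41 and 7.92 in mutants and 9.82, 9.86 and 9.98 in controls. The groups did not overlap, the controls lay close to each other (the SD was 0.59 in mutants and 0.08 in controls), and the mutant level was 37.6% of the control level. The difference was -1.41 (SE 0.30), with an adjusted p of 0.0569 from limma.

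Ndufs8, which holds iron-sulfur clusters on the path to the CoQ site, was read by 6 probe sets, all with every mutant below every control. On the brightest its values were 10.90, 10.58 and 9.94 in mutants and 11.38, 11.47 and 11.25 in controls, a difference of -0.90 (SE 0.27, limma adjusted p = 0.0997). Its other 5 probe sets differed by -0.93 to -1.84. Ndufv2, which carries an iron-sulfur cluster beside the flavin, had values of 10.62, 10.15 and 9.35 in mutants and 10.82, 11.14 and 10.91 in controls, with a difference of -0.92 (SE 0.33). All 3 of its probe sets had mutants below controls.

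The remaining core subunits overlapped between groups on their brightest probe sets. Ndufs1, the largest subunit of the matrix arm, had values of 8.91, 8.26 and 8.27 in mutants and 8.80, 9.26 and 9.45 in controls (difference -0.69, SE 0.27). Mutant 1 was above control 1 there. Ndufv1, the subunit that binds NADH, had values of 10.59, 10.70 and 9.97 in mutants and 10.67, 10.66 and 10.65 in controls, so that only mutants 1 and 3 were below every control (difference -0.24, SE 0.24). Ndufs7, which holds the iron-sulfur cluster that hands electrons to CoQ, had values of 10.92, 11.34 and 10.92 in mutants and 10.95, 11.06 and 10.84 in controls (difference 0.11, SE 0.21). Its second probe set had values of 9.55, 9.07 and 8.40 in mutants and 10.04, 9.997 and 10.37 in controls, and differed by -1.13 (SE 0.31).

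Accessory subunits of the matrix arm spanned the widest range. The median difference of the 9 genes was -0.44. Every mutant lay below every control in 5, against 14.1% of all genes, and above in 1, Ndufa2, against 23.3%. Ndufab1, the mitochondrial acyl carrier protein, had values of 9.78, 7.37 and 6.48 in mutants and 9.81, 10.13 and 10.18 in controls. Mutant 1 lay just below control 1 and the other mutants far below it, so that the mutant SD was 1.71 and the control SD 0.20. The difference of -2.16 (SE 0.73) had an adjusted p of 0.124 from limma. It was the most negative of the 44 genes on brightest probe sets with all animals, but the mean over the 5 probe sets of Ndufab1 differed by -0.74 only, and the other 4 ran from -1.31 to 0.29. Ndufa9, which lies close to the CoQ site, had values of 9.19, 8.18 and 7.52 in mutants and 9.93, 9.86 and 9.85 in controls. The groups did not overlap, with a difference of -1.58 (SE 0.39, limma adjusted p = 0.0690).

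Ndufa7 stood at the other end, with values of 10.74, 11.91 and 11.42 in mutants and 10.20, 10.31 and 11.12 in controls (difference 0.82, SE 0.36). Mutant 1 was below control 3. The remaining matrix arm genes were Ndufs4 (-1.07), a subunit whose loss in mice gives a model of Leigh syndrome, Ndufa6 (-0.59), Ndufa5 (-0.44), Ndufa12 (-0.35), Ndufv3 (0.27) and Ndufa2 (0.51). In Ndufs4, mutant 1 at 8.59 was above all controls, which were between 8.16 and 8.50, while mutants 2 and 3 were at 6.60 and 6.52.

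In the proximal membrane arm, next to the matrix arm, the 8 accessory genes had a median difference of -0.82. In 6 of them every mutant lay below every control, against 14.1% of all genes. Ndufa8 had values of 10.16, 8.80 and 8.12 in mutants and 10.19, 10.23 and 10.35 in controls (difference -1.23, SE 0.47, limma adjusted p = 0.154). Mutant 1 differed from the lowest control by less than the spread of the controls, and the other mutants were lower. Ndufa3 had values of 11.46, 11.87 and 11.61 in mutants and 11.51, 11.63 and 11.33 in controls, and the groups overlapped (difference 0.16, SE 0.20). The others were Ndufc2 (-1.23), Ndufa10 (-1.07), Ndufs5 (-0.95), Ndufa1 (-0.68), Ndufc1 (-0.48) and Ndufa13 (-0.32).

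The 11 accessory genes of the distal membrane arm, the Ndufb group, had a median of -0.96, the most negative of the classes on brightest probe sets. In 6 of them every mutant lay below every control, against 14.1% of all genes. Over all probe sets the median was -0.81 in this arm and -0.92 in the core subunits. Ndufb1 had values of 8.10, 6.94 and 6.56 in mutants and 9.09, 9.16 and 9.11 in controls. Every mutant was well below the controls, and the mutant level was 26.5% of the control level. The difference of -1.92 (SE 0.38) had an adjusted p of 0.0501 from limma, just past the threshold. Ndufb8 had values of 10.07, 9.33 and 8.79 in mutants and 10.82, 10.85 and 10.78 in controls (difference -1.42, SE 0.32, limma adjusted p = 0.0600). The SD was 0.65 in mutants and 0.03 in controls, and no mutant came near a control on this probe set. A dimmer probe set of Ndufb8 overlapped between groups and differed by 0.28. The mean over the probe sets of Ndufb8 differed by -0.57. Ndufb7 was the most positive gene of this arm, with values of 11.52, 12.39 and 12.10 in mutants and 11.59, 11.53 and 11.26 in controls (difference 0.54, SE 0.26).

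The other Ndufb genes ran from Ndufb10 (-1.01), Ndufb5 (-0.996), Ndufb2 (-0.97) and Ndufb6 (-0.96) to Ndufb9 (-0.42), Ndufb3 (-0.24), Ndufb11 (-0.02) and Ndufb4 (0.14). The dimmest probe set of Ndufb2 differed by 0.53, and the mean over the probe sets of Ndufb2 by -0.42. Ndufb4 was represented by a dim probe set, at 4.67 on average in mutants and 4.53 in controls. Its bright probe sets carry the symbols of near-identical copies as well and were left out. Those 2 had differences of -1.98 and -1.89.

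The 8 assembly factors with an Nduf symbol had a median difference of -0.41. Ndufaf1, a chaperone of the membrane arm, had values of 6.42, 5.84 and 5.50 in mutants and 7.07, 6.91 and 7.06 in controls, without overlap (difference -1.09, SE 0.26, limma adjusted p = 0.0667). Ndufaf2, a homologue of Ndufa12 that leaves late in assembly, had values of 7.89, 8.02 and 7.59 in mutants and 7.19, 7.26 and 7.21 in controls. All mutants were above all controls (difference 0.61, SE 0.20, limma adjusted p = 0.112). The rest were Ndufaf6 (-0.53), Ndufaf3 (-0.46), Ndufaf7 (-0.42), Ndufaf4 (-0.41), Ndufaf5 (0.14) and Ndufaf8 (0.28). Ndufa4, whose protein is now assigned to complex IV, differed by -0.30, and its relative Ndufa4l2 by 0.31.

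The promoters of 3 genes, called lower with the brightest probe set as 1 value per gene, are shown. They were picked because they hold a match to the ETS or YY1 motif, factors linked to nuclear genes for mitochondrial proteins. Of these 3 genes, only Ndufs3 was also called lower with the mean value per gene. RefSeq promoters of GRCm38.p6, from 250 bases before to 50 after the start, matched 39 of the 44 genes with 41 promoters. They were searched on both strands for GCATGCGC (letters of NRF1 sites), CCGGAAGT (ETS family), AAGATGGC (YY1), GGGCGG (SP1) and TGACGTCA (the cyclic AMP response element, CRE). Matches of GCATGCGC on opposite strands overlapped in Ndufaf4 and Ndufaf5. Capitals mark matches of the NRF1, ETS and YY1 letters, read 5' to 3' on the strand of the gene, at chr2:90904672-90904971 (Ndufs3), chr6:126849095-126849394 (Ndufa9) and chr19:44555393-44555692 (Ndufb8), all on the minus strand.
Ndufs3: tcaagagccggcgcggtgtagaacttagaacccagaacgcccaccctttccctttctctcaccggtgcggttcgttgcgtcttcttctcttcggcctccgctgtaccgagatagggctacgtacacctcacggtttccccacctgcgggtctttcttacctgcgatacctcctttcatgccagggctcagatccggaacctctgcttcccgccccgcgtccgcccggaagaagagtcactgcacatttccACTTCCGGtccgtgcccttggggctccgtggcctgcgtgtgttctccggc
Ndufa9: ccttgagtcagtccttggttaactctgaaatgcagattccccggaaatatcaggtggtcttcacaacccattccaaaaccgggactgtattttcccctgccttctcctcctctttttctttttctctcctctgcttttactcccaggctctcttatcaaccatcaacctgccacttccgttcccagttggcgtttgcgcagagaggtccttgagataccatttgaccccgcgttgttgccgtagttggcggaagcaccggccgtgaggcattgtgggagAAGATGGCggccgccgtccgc
Ndufb8: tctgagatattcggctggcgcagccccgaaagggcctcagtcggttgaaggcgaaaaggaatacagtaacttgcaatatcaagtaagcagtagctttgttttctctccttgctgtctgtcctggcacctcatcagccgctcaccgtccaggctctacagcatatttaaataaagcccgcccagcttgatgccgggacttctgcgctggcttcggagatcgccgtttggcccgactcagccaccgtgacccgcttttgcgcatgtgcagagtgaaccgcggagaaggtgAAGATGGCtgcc
The YY1 letters were found in 7 of the 41 promoters, 17.1%, against 2.75% of 32851 promoters of the mouse genome, and belonged to Ndufa3, Ndufa9, Ndufaf8, Ndufb8, Ndufc1, Ndufs4 and Ndufs7. These 7 genes had differences on both sides of zero, from -1.58 in Ndufa9 to 0.28 in Ndufaf8. The NRF1 letters were in 4 promoters, 9.76%, against 2.71% of all, and the ETS letters were in 1, Ndufs3, against 3.89% of all. SP1 letters were in 53.7% of the promoters, Ndufaf1 among them, against 35.7% of all, and the CRE letters were in 4.88%, those of Ndufa10 and Ndufb2, against 1.79% of all. A match is a description of the sequence and not of binding.

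The probe sets of a gene often disagreed. Of the 22 genes with more than 1 probe set, 10 were lower on all of them, 1 was higher on all and 11 had both signs, and both signs were found in 50.8% of all genes with several probe sets. The distance between the lowest and highest difference of a gene had a median of 1.09, against 0.59 for all such genes. Both called probe sets went against the brightest probe set of their gene. Ndufb7, a distal arm subunit, was called lower on its second probe set, 1448331_at, with values of 8.86, 8.47 and 7.96 in mutants and 9.96, 9.70 and 9.74 in controls. There every mutant was lower (difference -1.37, SE 0.26, limma adjusted p = 0.0494), whereas the brightest probe set of Ndufb7 differed by 0.54.

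Ndufa10, a proximal arm subunit related to nucleoside kinases, was called higher on its second probe set, 1418068_at, with values of 7.60, 7.54 and 7.36 in mutants and 6.31, 6.42 and 6.48 in controls. Every mutant was higher by that probe set (difference 1.09, SE 0.18, limma adjusted p = 0.0424). By its brighter probe set, Ndufa10 had 9.87, 9.26 and 8.56 in mutants and 10.26, 10.22 and 10.42 in controls, and every mutant was lower (difference -1.07, SE 0.33). Leaving out mutant 2, mutant 3 or any control ended both calls, with adjusted p between 0.089 and 0.188 from limma. In those fits only 0 to 2 of all 45037 probe sets were called lower and 0 to 1 higher. Ndufa7 was the widest case, with 2 bright probe sets at 0.82 and 0.42 and 3 dimmer ones at -1.28 to -1.65. Ndufa3 had probe sets at 0.16, -1.42 and 0.58.

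**Figure D2:**
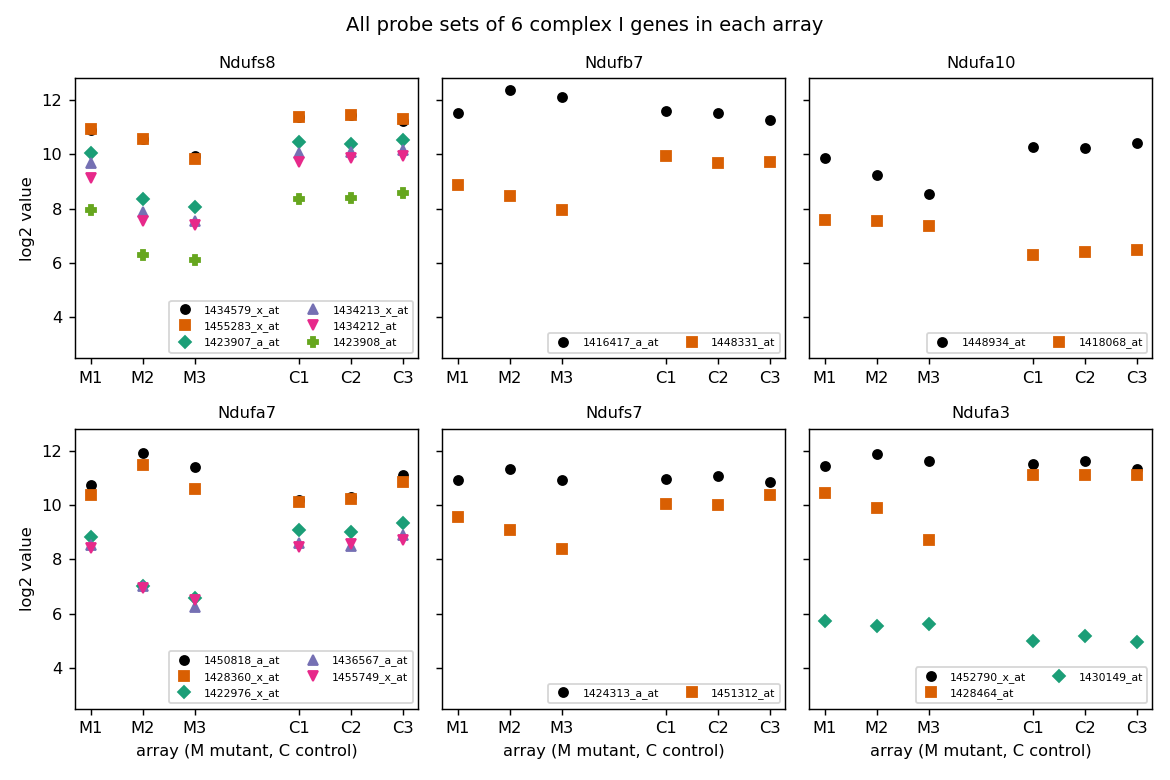
Log2 value (y axis) of every probe set of 6 genes in mutants 1 to 3 (left) and controls 1 to 3 (right), with 1 marker style for each probe set. The 6 probe sets of Ndufs8 are all lower in the mutants, while the probe sets of Ndufb7, Ndufa10, Ndufa7, Ndufs7 and Ndufa3 differ in sign within a gene.

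The sign also went with brightness. Among the 13 probe sets with a mean of 11 or more, the median difference was -0.05, and 8 were negative. Between 10 and 11 the median was -0.74 (16 probe sets), between 9 and 10 it was -1.13 (21 probe sets, 19 of them negative), and between 7 and 9 it was -0.87 (22 probe sets). Below 7 the 16 probe sets had a median of 0.14. Over all probe sets of the array the same 5 bins, from the brightest, had medians of -0.02, -0.14, -0.24, -0.03 and 0.21. No background values or detection calls came with the arrays, so how far each signal lies above background is unknown.

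**Figure D3:**
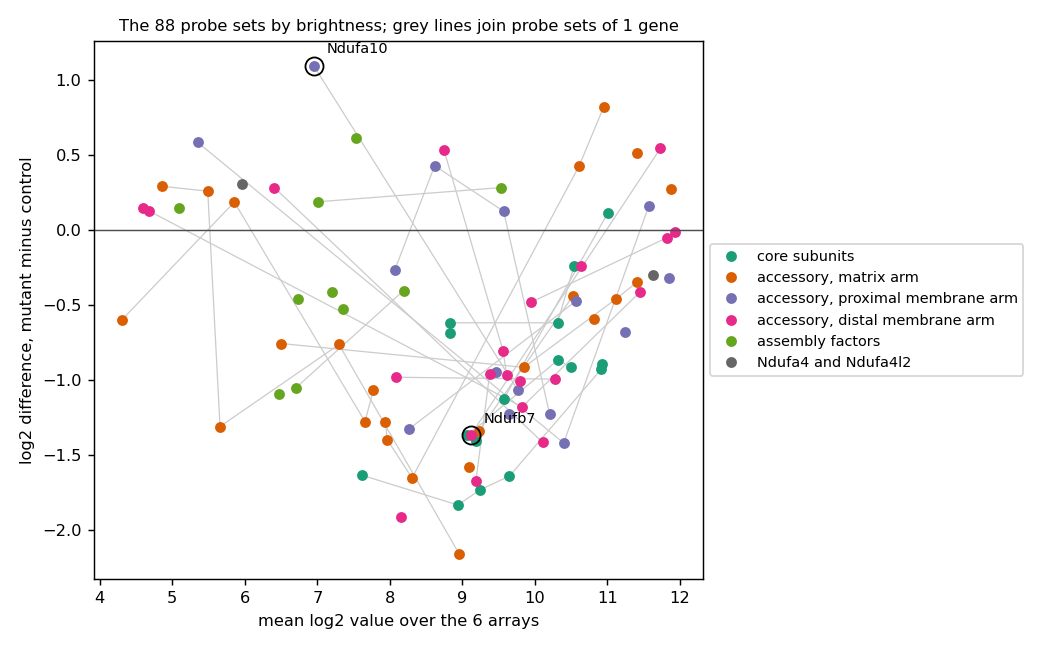
Difference, mutant minus control on the log2 scale (y axis), against the mean log2 value over the 6 arrays (x axis) for the 88 probe sets, coloured by class, with grey lines between probe sets of 1 gene and rings on the 2 that were called. The lowest values lie between about 8 and 10, and the brightest probe sets lie nearer to 0.

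The mutants differed more among themselves than the controls did. The mutant SD exceeded the control SD in 42 of the 44 genes, 95.5%, against 60.7% of all genes. The median SD over the 44 genes was 0.44 in mutants and 0.11 in controls. Relative to the control mean, the median over the genes was -0.15 in mutant 1, -0.46 in mutant 2 and -0.84 in mutant 3. Mutant 1 was the lowest of the 6 arrays in 0 genes, mutant 2 in 3 and mutant 3 in 30. The Gapdh 3' probe set had the same order of mutants, 11.92, 10.45 and 9.84, and its part in this was not tested.

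Without mutant 1 the fit called 12 of the 44 genes lower, against 7.61% of all genes: Ndufs3, Ndufa9, Ndufab1, Ndufs4, Ndufa8, Ndufa10, Ndufc2, Ndufb1, Ndufb2, Ndufb6, Ndufb8 and Ndufaf1. Mutant 3, the oldest animal, minus its concurrent control 1 had a median of -0.73 over the 44 genes and 0.24 over all genes, and 35 of the 44 were lower in that mutant. That pair is a single comparison with no replicate. By class, the medians of the assembly factors were 0.05, -0.13 and -0.30 in mutants 1 to 3, against -0.06, 0.15 and 0.30 in controls 1 to 3, each as a median of deviations from the gene's own average. The core subunits were at 0.01, -0.34 and -0.78 in mutants and at 0.22, 0.49 and 0.37 in controls.

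**Figure D4:**
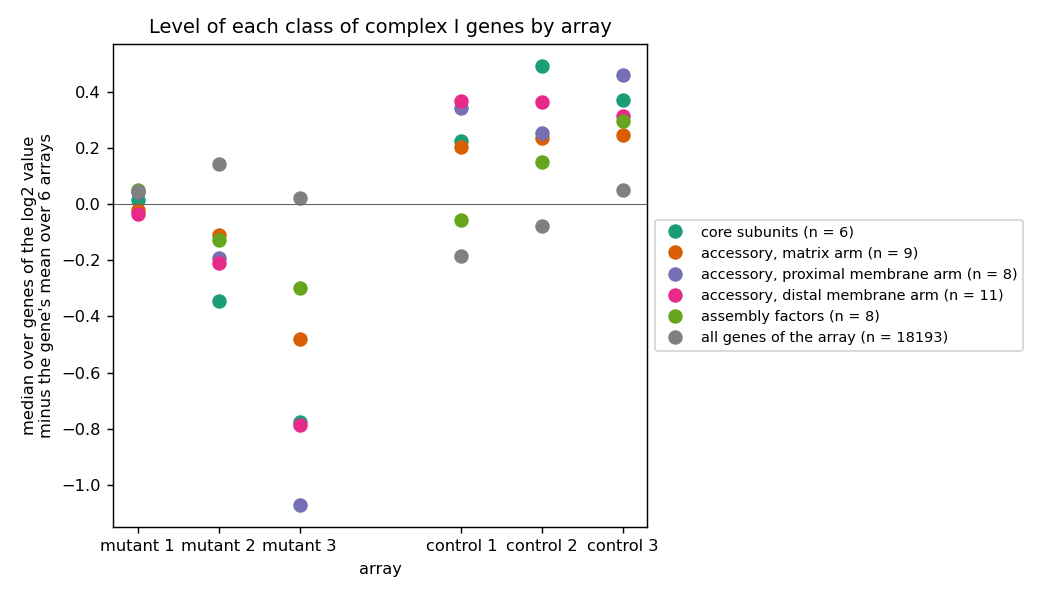
Median over the genes of each class (y axis) of the deviation from each gene's own average over the arrays, on the log2 scale, for mutants 1 to 3 (left) and controls 1 to 3 (right), with all 18193 genes of the array in grey. Every class lies near 0 in mutant 1 and is lowest in mutant 3, at -1.07 for the accessory genes of the proximal membrane arm.

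Genes of complex I without an Nduf symbol differed in both directions. ND5, a core subunit encoded in mitochondrial DNA, had values of 14.16, 14.27 and 14.27 in mutants and 13.79, 13.82 and 13.68 in controls, so that all mutants were above all controls (difference 0.47, SE 0.18, limma adjusted p = 0.154). It was the only gene of that group with a probe set used here. Of 13 further assembly factors, 12 were measured, and 0 were called lower or higher on brightest probe sets, against 1.04% and 1.73% of all genes. Every mutant lay below every control in 4, against 14.1% of all genes: Timmdc1 (-1.24), Dmac1 (-1.005), Ecsit (-0.75) and Aifm1 (-0.54). Foxred1 (1.14) and Tmem126b (0.57) had every mutant above every control, against 23.3% of all genes. Dimmer probe sets lay above in every mutant for Acad9 (0.80) and Tmem186 (0.88) and below for Lyrm2 (-0.80), while their brightest ones overlapped.

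Genes of complexes IV and V had medians like that of complex I, and no test between complexes was made. The median difference was -0.69 over the 34 Nduf subunits, -0.81 over 10 genes of complex IV and -0.71 over 16 genes of ATP synthase. Complex III with cytochrome c stood at -0.31 over 10 genes, where Uqcrh, the hinge protein, was called higher by 1.27 (SE 0.20, limma adjusted p = 0.0345). For the 4 subunits of complex II, which also reduces CoQ, the median was 0.05. Markers of the mitochondrial outer membrane and matrix had a median of -0.48 over 11 genes, with 0 of them called on their brightest probe sets. Of their 31 probe sets 1 was called lower, against 0.746% of all probe sets. That was a dimmer probe set of Tomm20, with a difference of -2.16.

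**Figure D5:**
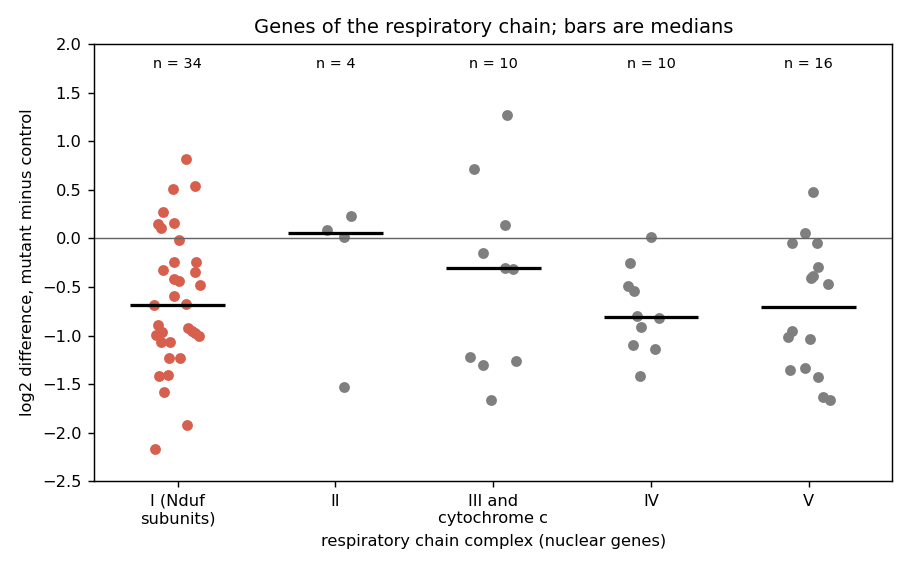
Difference, mutant minus control on the log2 scale (y axis), of the nuclear genes of each respiratory chain complex (x axis), 1 point for each gene on its brightest probe set, with bars at the medians of -0.69, 0.05, -0.31, -0.81 and -0.71 for complexes I to V. Points of complexes I, IV and V lie mostly below 0.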

How the data were processed

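Total RNA from the livers of 3 mutants and 3 controls had been labelled and hybridized to 1 Affymetrix array per animal. The authors normalized and summarized the perfect-match probes in dChip and deposited 1 log2 value per probe set and array, from 0 to 14.6, with 40 values of exactly 0 and none of these in the 88 probe sets described. Which dChip version and baseline array were used is not stated in the paper or labels. Probe set names identify a mouse array, although the methods mention one for C. elegans.

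Symbols came from GEO's platform annotation: 34945 probe sets had 1 symbol, 932 several and 9160 none, with 64 array controls set aside. The values were used without further scaling. Differences over 45037 probe sets were tested in R 4.3.3 with limma 3.58.1 (functions lmFit and eBayes) and Benjamini-Hochberg adjustment. The fit was checked on simulated data. Groups were taken from the sample titles. All Nduf genes could be named. Values per array are given for the core subunits, for genes with a called probe set and for the extremes of each class. Outside these groups they are given for Ndufa9, Ndufb8, Ndufs4, ND5, Alb, Pdss2 and the Gapdh and Actb controls. Other genes, among them the called genes of the other lists, were named without values per array. The members and lists were chosen with earlier results of these data known. Lists of complexes, assembly factors and cell types were written by hand. The motifs and the 3 promoters shown were chosen after the values were seen.

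The alternatives were quantile normalization, centring, bright probe sets alone, trend and robust eBayes, a replicate block, age, 1 value per gene, Welch's test and each animal left out. The number of arrays limits the precision. Figures were drawn with matplotlib 3.10.9.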

Additional observations from a re-analysis of the deposited data

Results flagged for a closer look

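Control probe sets that no comparison of the study uses were higher in every mutant than in every control. The Gapdh 5' probe set was higher by 1.71, and the spiked-in transcripts BioB, BioC and BioDn by 1.81, 1.66 and 1.43 on the log2 scale. The spikes are added to the sample in fixed amounts and do not come from the liver. With 3 arrays in each group, no search for a single outlying array within a group was made.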

How the results depend on the processing

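The median difference of the 44 genes stayed between -0.36 and -0.60 when any 1 animal was left out, and between -0.45 and -0.63 under quantile normalization, centring, bright probe sets, age and both fits with 1 value per gene. Centring took the median of all probe sets to 0.01 and quantile normalization to 0.04, against 0.17 as deposited. The count of genes called lower, 0 as deposited, was 6 among bright probe sets (6.50% of them called lower). It was 1 with trend and robust eBayes (1.22% of all probe sets) and 4 with age (2.49% of all probe sets). With the brightest and the mean value per gene it was 6 and 2 (4.11% and 1.06% of all genes). It was 18, with 1 higher, where p under 0.05 was taken unadjusted, a threshold added after the data were seen. It ran from 0 to 12 when 1 animal was left out, and only leaving out mutant 1 raised it (7.61% of all genes called lower). In the other fits without 1 animal, only 0 to 2 of all 45037 probe sets were called lower. The count called higher was 0 under every alternative with adjustment. Probe sets called lower, 1 as deposited, were 0 with quantile normalization, centring and Welch's test. They were 10 among bright probe sets, 2 with trend and robust eBayes and 8 with age. With 1 animal left out they were 0 to 33, and 33 came without mutant 1, where 5.66% of all probe sets were called lower. Probe sets called higher, also 1, were 0 with centring and Welch's test and 0 to 1 with 1 animal left out. Welch's test called 0 of all 45037 probe sets after adjustment, and 2213 of them had an unadjusted p under 0.05 and lower values in mutants.

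With the replicate block, 0 Nduf genes and 0 Nduf probe sets were called in either direction, the median difference was -0.47, and 0 of all 45037 probe sets were called. Arrays that share a replicate number share nothing else in the labels. Their deviations from the group means correlated at 0.06, -0.50 and -0.56, so the numbers do not pair the animals. Over all combinations of a mutant and a control the correlation ran from -0.56 to 0.62, the latter for mutant 2 with control 3. For mutant 3 and its concurrent control 1 it was 0.45.

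The sign was kept by 36 of the 44 genes in all 14 alternatives that give a value per gene. The 8 others lay near 0 or had probe sets of both signs. With the mean of all probe sets, the differences were 0.012 in Ndufa10, -0.23 in Ndufa3, -0.62 in Ndufa7, -0.41 in Ndufb7 and -0.51 in Ndufs7. After centring they were -0.0070 in Ndufa3, -0.018 in Ndufaf5, -0.019 in Ndufb4 and -0.051 in Ndufs7, and after quantile normalization -0.037 in Ndufaf5 and -0.051 in Ndufb4. With 1 animal left out, Ndufaf5 ran from -0.070 (without mutant 1) to 0.31, Ndufb11 from -0.093 to 0.046 (without mutant 1), and Ndufs7 from -0.028 (without mutant 2) to 0.18. The cause of these changes was not tested. The signal over background is unknown.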

Other observations

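Probe sets annotated to several symbols, of which at least 1 is an Nduf gene, were left out of the counts. Dim ones overlapped between groups: Ndufa11 with its copy (0.18), Ndufa13 with Yjefn3 (0.22 and 0.26) and Ndufb2 with Adck2 (-0.34). There were 10 such probe sets in all. The probe set shared by Ndufab1 and its pseudogene Ndufab1-ps had log2 values of 9.15, 7.50 and 7.66 in mutants and 10.49, 10.77 and 10.26 in controls, and was called lower (difference -2.40, SE 0.43, limma adjusted p = 0.0461). The bright probe sets shared with near-identical copies were lower in every mutant than in every control for Ndufa11 (-1.69), Ndufs5 (-1.30) and Ndufs6 (-1.07), with adjusted p of 0.0720, 0.0748 and 0.116 from limma. For Ndufs6 and Ndufa11 these are the sole bright probe sets on the array, and signal of the gene and of its copy cannot be told apart on them.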
